A study of Mus musculus with 28 samples.

Results

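Genes of sodium transport in the thick ascending limb, the distal convoluted tubule and the collecting duct were followed in the kidney of mice gavaged with nicotinamide mononucleotide (NMN), a precursor of NAD+, or with water. The genes were listed by name for their roles in the nephron, and 10 of the 54446 genes counted in each library were members. They encode 2 chloride-coupled sodium transporters (Slc12a1 and Slc12a3), the 3 subunits of the epithelial sodium channel ENaC (Scnn1a, Scnn1b and Scnn1g), 3 kinases (Wnk1, Wnk4 and Stk39), a ubiquitin ligase (Nedd4l) and the mineralocorticoid receptor (Nr3c2). Each of the 10 passed the filter on low counts in both kidney comparisons.

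In the thick ascending limb, sodium enters the cell from the urine with potassium and chloride through the transporter NKCC2, and in the distal convoluted tubule with chloride through NCC, the target of thiazide diuretics. In the connecting tubule and the collecting duct it enters through ENaC, whose abundance at the cell surface is raised by aldosterone acting on the mineralocorticoid receptor. WNK kinases act through SPAK, the product of Stk39, which phosphorylates NKCC2 and NCC, and NEDD4-2, the product of Nedd4l, marks ENaC for removal from the surface.

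The animals were male C57BL/6 mice of 8 weeks, described in the methods as the J substrain, and no allele or transgene distinguished the groups. They were gavaged for 7 days in separate schedules, each with its own water controls. In the first, NMN was given once daily at 1340 mg/kg/d to 4 mice, and 4 mice received water. In the second, which had more than one gavage a day, NMN was given at 2680 mg/kg/d to 3 mice, and 3 mice received water. Dose and number of gavages therefore differ together and cannot be told apart. Liver and kidney were sequenced from poly(A)-selected RNA, which made 28 libraries, 14 of them from kidney. Counted reads per kidney library ran from 15354270 to 15696435 in the water mice and from 13174264 to 14006288 in the NMN mice at 1340 mg/kg/d, and from 16358886 to 18983689 and from 22922994 to 33872983 at 2680 mg/kg/d. The NMN libraries of the second schedule were thus the deepest. Mitochondrial genes took 9.71% and 9.48% of the counts in the water and NMN kidneys of the first schedule, and 20.6% and 20.3% in those of the second. Levels are given as CPM, which are counts scaled to the library total with edgeR's TMM factors, and per kilobase of annotated exon where genes are compared with each other. NMN was compared with water within each schedule with the quasi-likelihood F test of edgeR, the p-values were adjusted by Benjamini-Hochberg over all genes tested, and the threshold was an adjusted p of 0.05.

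The kidney libraries carried the segments in which these genes act. The thick limb protein uromodulin (Umod) averaged 2221 CPM (SD 255.5, n = 4) in the water mice of the first schedule and 1593 CPM (SD 273.4, n = 3) in those of the second. Of the 8 thick limb, 6 distal tubule, 5 connecting tubule and 8 principal cell markers, 1 did not pass the filter on low counts, the vasopressin receptor gene Avpr2 of principal cells, at 0 to 0.542 CPM. Avpr2 shares 81.3% of its exon bases with Arhgap4 on the other strand. Counting ignored strand and left out reads lying wholly in exons of 2 genes, so its level here may be too low. The share of its reads lost in this way was not measured. The most abundant marker over the 14 kidney libraries was Umod for the thick limb, Klhl3 (73.9 CPM on average) for the distal tubule, Klk1 (2218 CPM) for the connecting tubule and Aqp2 (238.5 CPM) for principal cells. Hsd11b2 stood above Aqp2 in the second schedule, at 177.6 against 171.8 CPM in water and 185.4 against 172.0 CPM in NMN mice. Hepatocyte transcripts were also counted in kidney, with Ttr the most abundant over the 14 libraries at 87.0 CPM. Alb averaged 88.6 CPM in water and 102.4 CPM in NMN kidneys of the first schedule, where Ttr had 98.7 and 70.3 CPM, and Alb had 10.6 and 13.6 CPM in those of the second. The 4 hepatocyte markers summed to 205.1 CPM in the water and 192.3 CPM in the NMN kidneys of the first schedule, and to 109.3 and 108.6 CPM in those of the second. The part of these traces of other tissue in the results was not tested. Of 5 adrenal cortex markers, Cyp11b1, Cyp11b2, Cyp21a1 and Cyp11a1 were at 3 counts or fewer, and Star averaged 4.48 CPM.

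Per kilobase, Slc12a1 and Slc12a3 were the most abundant of the 10 genes in the water mice. The first schedule's water mice had 144.4 CPM per kb of Slc12a1 (SD 16.6, n = 4) and 85.2 of Slc12a3 (SD 3.88, n = 4). Wnk4 followed with 43.4 CPM per kb and Scnn1a with 34.5. Scnn1b at 18.3, Wnk1 at 17.6 and Scnn1g at 15.4 CPM per kb came next, and the ranges of each neighbouring pair among these 3 overlapped between mice. Stk39 at 6.80 and Nedd4l at 6.46 CPM per kb also overlapped, and Nr3c2 was lowest at 2.81. The order was the same in the water mice of the second schedule, from 129.1 CPM per kb for Slc12a1 to 2.51 for Nr3c2, with Scnn1b at 19.7 and Wnk1 at 19.2 as the neighbours whose ranges overlapped. Lengths are the union of the exons of all annotated isoforms, which came to 22825 bases for Wnk1, so a gene with many isoforms stands lower on this scale than on CPM.

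At 1340 mg/kg/d the 10 genes lay higher in the NMN kidneys than in the water kidneys, by amounts that did not pass the test over all genes. Each of the 10 log2 fold changes was above 0, from 0.08 for Scnn1g and Wnk4 to 0.43 for Slc12a1, with a median of 0.17 against 0.0011 over the 14972 genes tested, of which 50.3% were above 0. By edgeR 0 of the 10 passed an adjusted p of 0.05, where 18 genes or 0.12% of those tested did. At an unadjusted p under 0.05 there were 4 of 10, against a background of 8.94%, and in DESeq2 1 of 10 passed, Slc12a1, where 159 genes or 1.26% did. In 3 of the 10, Slc12a1, Scnn1b and Wnk1, each NMN mouse lay above each water mouse, against 2.29% of all genes. In the second schedule 8 of 10 were above 0, with a median of 0.06 against 0.0038 over 15245 genes. Again 0 of the 10 passed by edgeR, where 61 genes or 0.4% did, and 0 by DESeq2, where 236 or 1.53% did. An unadjusted p under 0.05 was reached by 2 of 10, against 11.1% of all genes, and 4 of 10 were higher without overlap, against 8.47%. In whole kidney, a change in the share of cells of a segment and a change in RNA per cell of that segment cannot be told apart, in either direction.

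**Figure D1:**
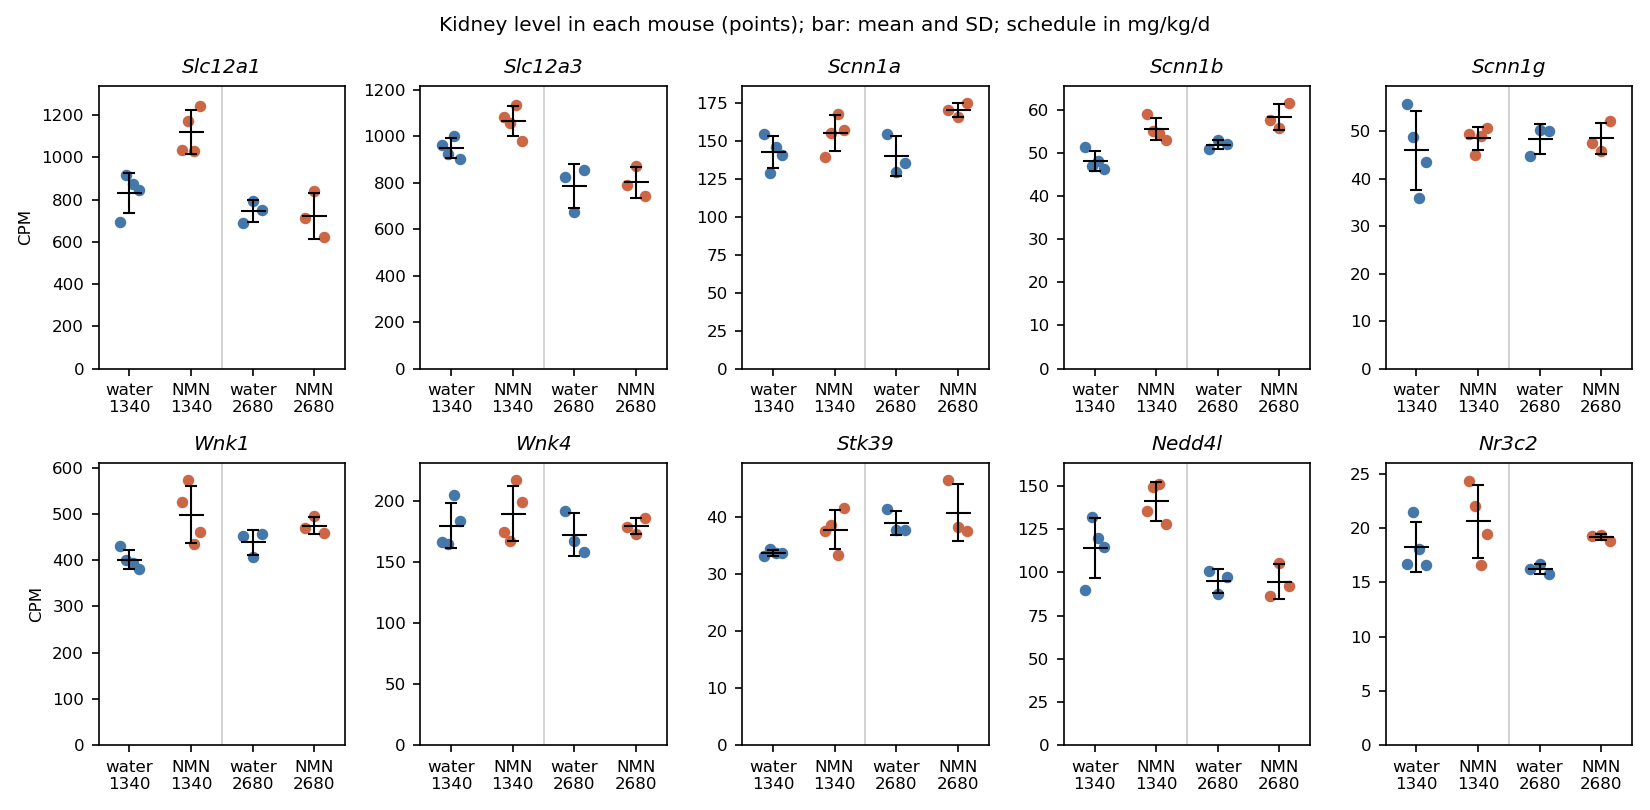
Level of the 10 genes in CPM (vertical axis, from 0, a scale of its own for each gene) in each kidney, by group (horizontal axis, schedule in mg/kg/d). Points are mice, and the black bars give the mean and SD of 4 or 3 mice. The 4 NMN mice of the first schedule lie above the 4 water mice for Slc12a1, Scnn1b and Wnk1, and the 3 NMN mice of the second lie above the 3 water mice for Scnn1a, Scnn1b, Wnk1 and Nr3c2.

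Slc12a1, which encodes NKCC2, the entry step for sodium in the thick limb, had the highest fold change of the 10 in the first schedule. The water mice had 695.3, 844.9, 871.8 and 915.7 CPM and the NMN mice 1031, 1036, 1172 and 1243 CPM. The groups did not overlap, and 1 water mouse stood below the other 3. The log2 fold change was 0.43 (SE 0.10, 95% interval 0.21 to 0.65), a 1.35-fold difference, with an unadjusted p of 0.000708, rank 91 of 14972, and an adjusted p of 0.117 by edgeR. In the second schedule the water mice had 688.7, 751.0 and 792.0 CPM and the NMN mice 621.6, 713.5 and 838.6 CPM. The NMN mice there lay on both sides of the water mice, and the log2 difference was -0.04 (95% interval -0.28 to 0.21, adjusted p = 0.934 by edgeR). The effect in the second schedule minus that in the first was -0.47 on the log2 scale (SE 0.16, 95% interval -0.80 to -0.14). Its unadjusted p was 0.0075 and its adjusted p 0.999 in the edgeR interaction over 14 kidney libraries, so the difference between schedules did not pass.

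Slc12a3, the gene of NCC, differed less. The water mice of the first schedule had 902.4, 924.3, 962.2 and 1000 CPM and the NMN mice 978.9, 1058, 1082 and 1135 CPM. One NMN mouse lay below the highest water mouse. The log2 difference was 0.17 (95% interval -0.02 to 0.35, adjusted p = 0.6 by edgeR), and in the second schedule it was 0.03 (95% interval -0.20 to 0.27, adjusted p = 0.944), with means of 784.2 CPM in water and 801.1 CPM in NMN mice. Within each mouse the log2 ratio of Slc12a3 to Slc12a1 averaged 0.19 in water and -0.07 in NMN kidneys of the first schedule, and 0.07 and 0.15 in those of the second. The differences were -0.27 and 0.08, with two-sided exact permutation p of 0.143 (n = 4 against 4) and 0.9 (n = 3 against 3), and the groups overlapped in both.

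Among the ENaC subunits, Scnn1a, the alpha subunit, which is the one induced by aldosterone in the collecting duct, had 129.7, 135.9 and 155.1 CPM in the water mice of the second schedule and 165.8, 170.8 and 175.1 CPM in the NMN mice. Every NMN mouse there was above every water mouse. The log2 fold change was 0.28 (SE 0.08, 95% interval 0.10 to 0.47), a 1.22-fold difference, with an unadjusted p of 0.00599 and an adjusted p of 0.219 by edgeR. Under the lower dose Scnn1a had 129.4, 140.7, 146.0 and 154.9 CPM in water and 139.6, 155.5, 157.6 and 168.3 CPM in NMN mice, and the groups overlapped (log2 0.12, 95% interval -0.07 to 0.32, adjusted p = 0.75).

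Scnn1b, the beta subunit, was the ENaC gene whose groups were apart in both schedules. In the first, the water mice had 46.2, 47.0, 48.0 and 51.3 CPM and the NMN mice 53.0, 54.7, 55.1 and 59.1 CPM. In the second, the water mice had 50.9, 52.0 and 52.9 CPM and the NMN mice 55.7, 57.7 and 61.6 CPM. The groups lay close together in either case, and the log2 fold changes were 0.20 (95% interval 0.01 to 0.40, adjusted p = 0.528) and 0.17 (95% interval 0.00 to 0.34, adjusted p = 0.453) by edgeR. Scnn1g, the gamma subunit, is on mouse chromosome 7, as is Scnn1b, and its groups overlapped in both schedules. Its 4 water mice of the first schedule spread from 36.0 to 55.7 CPM, around the NMN mice at 45.1 to 50.6 CPM, and in the second schedule the means were 48.4 and 48.5 CPM. The log2 ratio of Scnn1g to Scnn1b was lower in NMN than in water kidneys by 0.16 in the second schedule, without overlap. The exact permutation p of 0.1 was the smallest that 3 against 3 mice allow, and the p adjusted over the 14 ratio tests was 0.6.

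Among the kinases, Wnk1, which in its kidney-specific short form is a distal tubule transcript and in its long form acts throughout the body, had 380.8, 394.5, 400.0 and 430.6 CPM in water and 435.1, 461.3, 527.1 and 573.1 CPM in NMN mice of the first schedule. The groups did not overlap, and the NMN mice spread more widely than the water mice. The log2 fold change was 0.31 (SE 0.10, 95% interval 0.10 to 0.52), with an unadjusted p of 0.00557 and an adjusted p of 0.294 by edgeR. In the second schedule Wnk1 had 407.4, 453.2 and 456.1 CPM in water and 460.0, 471.0 and 495.2 CPM in NMN mice, again apart, with a log2 difference of 0.11 (95% interval -0.07 to 0.30, adjusted p = 0.661). The counts are per gene, so the short and long forms of Wnk1 were not separated. Wnk4, whose mutation in people causes hypertension with high potassium, lay within 0.08 of 0 on the log2 scale in both schedules (95% intervals -0.14 to 0.30 and -0.14 to 0.25), and its groups overlapped. Stk39 was nearly constant in the water mice of the first schedule, at 33.1 to 34.4 CPM, with NMN mice at 33.2, 37.6, 38.5 and 41.5 CPM (log2 0.16, 95% interval -0.05 to 0.38, adjusted p = 0.671). In the second schedule its log2 difference was 0.06 (95% interval -0.15 to 0.28).

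Nedd4l, whose product removes ENaC from the cell surface, had 90.0, 114.8, 119.8 and 131.9 CPM in water and 127.9, 135.6, 149.8 and 151.4 CPM in NMN mice of the first schedule. The lowest NMN mouse lay below the highest water mouse, and the water mouse with the lowest Nedd4l was also the one with the lowest Slc12a1. The log2 fold change was 0.31 (SE 0.11, 95% interval 0.07 to 0.54), with an unadjusted p of 0.0137 and an adjusted p of 0.412 by edgeR. In the second schedule the means were 95.2 CPM in water and 94.7 CPM in NMN mice (log2 -0.01, 95% interval -0.21 to 0.20). The difference between schedules was -0.32 for Nedd4l (95% interval -0.64 to 0.01, unadjusted p = 0.0557 and adjusted p = 0.999 in edgeR).

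Nr3c2, the mineralocorticoid receptor, had narrow groups in the second schedule. The water mice had 15.8, 16.2 and 16.7 CPM and the NMN mice 18.8, 19.3 and 19.3 CPM, from 263 to 309 and from 441 to 630 counts. The groups did not overlap, and the log2 fold change was 0.24 (SE 0.10, 95% interval 0.03 to 0.45), with an unadjusted p of 0.0303 and an adjusted p of 0.381 by edgeR. Nr3c2 in the first schedule ran from 16.6 to 21.5 CPM in water and from 16.6 to 24.4 CPM in NMN mice, with overlap (log2 0.18, 95% interval -0.13 to 0.48, adjusted p = 0.767). Strand was not used in counting, and a read that lies wholly in exons of 2 genes is ambiguous in this mode and was left out. Nr3c2 shares 3.82% of its exon bases with Gm10649, Nedd4l 1.57% with A330084C13Rik and Wnk4 7.38% with Gm11615, each on the other strand, and the share of their reads that this touches was not measured.

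**Figure D2:**
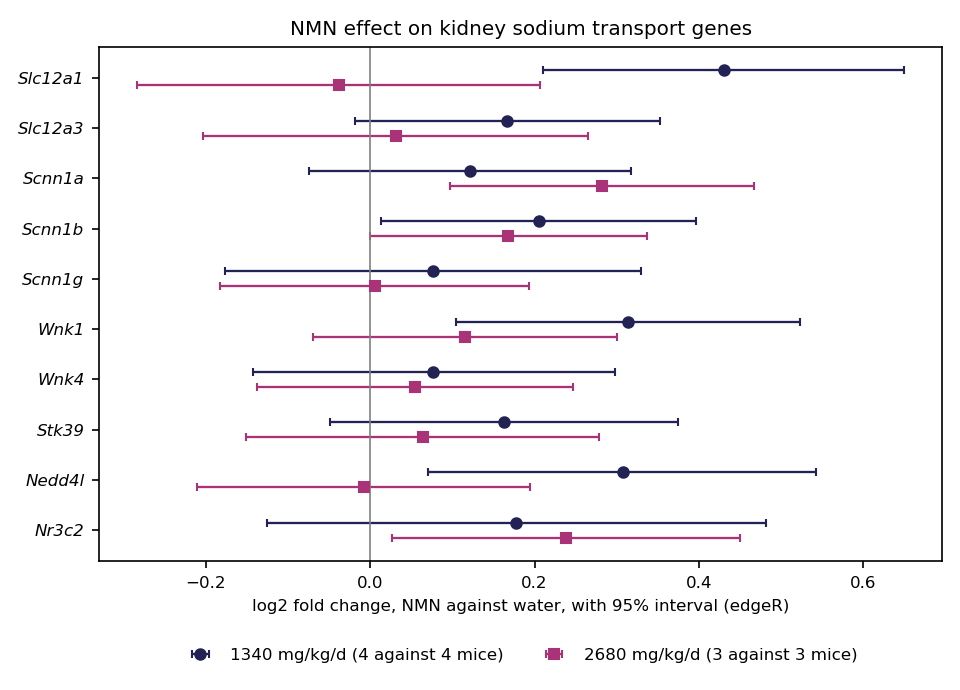
Log2 fold change of NMN against water (horizontal axis) for the 10 genes in each schedule, from edgeR. Symbols are estimates and lines 95% intervals, with 4 against 4 mice at 1340 mg/kg/d and 3 against 3 at 2680 mg/kg/d. The interval lies above 0 for 4 genes in the first schedule (Slc12a1, Scnn1b, Wnk1 and Nedd4l) and for 2 in the second (Scnn1a and Nr3c2), and no adjusted p was under 0.05.

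Across the 10 genes the largest increase that the intervals allowed was 0.65 on the log2 scale, or 1.57-fold, in the first schedule and 0.47, or 1.38-fold, in the second. Of the 10 interactions between treatment and schedule, 0 passed in edgeR, where 1 of 15989 genes or 0.00625% did. Slc12a1 was the 1 member with an unadjusted p under 0.05, against 4.62% of all genes, and in DESeq2 0 of the 10 passed, where 10 genes or 0.0787% did.

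The promoters of the 3 genes whose NMN and water mice were apart in the first schedule are shown, as the members without overlap between the groups there, although none passed in edgeR. RefSeq entries with a promoter matched 8 of the 10 genes (Scnn1a and Nedd4l were not among them), and each run below is the 250 bases before the annotated start in GRCm38.p6, 5′ to 3′ on the strand of the gene. Slc12a1 is at chr2:125152350-125152599 on the plus strand, Scnn1b at chr7:121864788-121865037 on the plus strand and Wnk1 at chr6:120038656-120038905 on the minus strand. Capitals mark a match to one of the motifs searched.
Slc12a1: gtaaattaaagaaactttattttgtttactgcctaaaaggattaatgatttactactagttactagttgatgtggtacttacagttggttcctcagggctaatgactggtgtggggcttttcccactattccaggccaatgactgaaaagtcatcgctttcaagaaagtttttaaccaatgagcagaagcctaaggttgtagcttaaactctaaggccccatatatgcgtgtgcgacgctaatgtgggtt
Scnn1b: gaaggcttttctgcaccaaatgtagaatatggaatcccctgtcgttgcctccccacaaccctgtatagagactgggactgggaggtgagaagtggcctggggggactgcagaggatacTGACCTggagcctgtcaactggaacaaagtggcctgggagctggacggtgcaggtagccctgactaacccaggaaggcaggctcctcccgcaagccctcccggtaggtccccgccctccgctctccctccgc
Wnk1: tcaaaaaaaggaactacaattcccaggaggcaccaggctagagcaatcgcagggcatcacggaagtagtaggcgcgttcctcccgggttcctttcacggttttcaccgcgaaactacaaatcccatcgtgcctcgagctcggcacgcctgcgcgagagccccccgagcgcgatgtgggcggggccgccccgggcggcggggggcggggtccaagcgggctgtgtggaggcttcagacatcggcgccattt
The Slc12a1 run was AT-rich, with 39.6% G and C, whereas that of Scnn1b had 60.8% and that of Wnk1 64.0%. Motifs were searched on both strands in 300 bases, of which 50 lie after the start. These were the E-box CACGTG of the clock factors (in 7.15% of 32851 promoters), the steroid receptor half-site TGTTCT (19.0%), the full steroid receptor site of paired half-sites (0.00913%), which contains that half-site, the D-box TTATGTAA (0.938%) and the orphan receptor half-site AGGTCA (16.3%). Over the 8 promoters there was 1 match, the AGGTCA half-site in Scnn1b, read on the minus strand and beginning 132 bases before the start. A match of these letters is a description of the sequence, and their absence says nothing of other windows.

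Thick limb genes outside the 10 were read as markers of that segment. In the first schedule, of 8 such markers, 7 were above 0 (50.3% of all genes were) with a median log2 fold change of 0.28. An unadjusted p under 0.05 was reached by 3 of 8 (8.94% of all genes), 0 passed in edgeR (0.12%) and 1, Egf, passed in DESeq2 (1.26%). Egf, a growth factor made in this segment, had means of 1201 and 1607 CPM (log2 0.42, adjusted p = 0.111), Umod 2221 and 2731 CPM (log2 0.30, adjusted p = 0.35), and Casr, the calcium-sensing receptor, a log2 difference of 0.32 (adjusted p = 0.432). The summed level of the 8 markers was 3481, 3849, 4114 and 4362 CPM in water and 4592, 4937, 5020 and 5052 CPM in NMN mice, without overlap (log2 0.31, two-sided exact permutation p = 0.0286, the smallest that 4 against 4 allow). The summed level of 10 proximal tubule markers ran the other way, from 16820 to 18370 CPM in water and from 15340 to 16450 CPM in NMN mice (log2 -0.15, exact permutation p = 0.0286), with Slc34a1 the most abundant at 5353 CPM. The group means of this sum were 17540 and 15780 CPM, and those of Slc34a1 alone 6744 and 5456 CPM. Of the 10 markers 8 were below 0, and Slc13a3 and Cubn lay above it, at log2 0.39 and 0.02 (adjusted p = 0.243 and 0.986 by edgeR). Relative to the thick limb markers of the same mouse, Slc12a1 was higher by 0.21 in NMN mice of the first schedule (exact permutation p = 0.143) and lower by 0.11 in those of the second (exact permutation p = 0.4), with overlap in both. The part of these marker levels in the Slc12a1 difference was not tested.

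In the second schedule the 8 thick limb markers summed to 2785 CPM (SD 401, n = 3) in water and 3131 CPM (SD 203, n = 3) in NMN mice, with overlap (log2 0.18, exact permutation p = 0.3), beside a log2 difference of -0.04 for Slc12a1. The proximal sum was 14430 CPM in water and 12840 CPM in NMN mice, also with overlap. Summed distal tubule, connecting tubule and principal cell markers overlapped between NMN and water in both schedules, with log2 differences from -0.05 to 0.10. Relative to distal tubule markers, Slc12a3 differed by 0.13 and -0.01 (exact permutation p = 0.286 and 0.9), and Scnn1b with Scnn1g relative to principal cell markers by 0.09 and 0.14 (exact permutation p = 0.371 and 0.3). These principal cell markers include Aqp4, at log2 -0.91 in the second schedule, where 5 of the 7 tested were above 0. The part of Aqp4 in that ratio was not tested. Intercalated cell markers were higher without overlap in the second schedule, at 568.3 against 518.0 CPM (exact permutation p = 0.1, the smallest possible), and their most abundant gene was Atp6v1b1 at 126.1 CPM. Of that list DESeq2 called Aqp6 there (1.53% of all genes), at log2 0.41 with an adjusted p of 0.0568 by edgeR. Slc4a1 had 0.36 (adjusted p = 0.26 by edgeR), and Atp6v1g3 and Slc4a9 lay below 0, at -0.14 and -0.05. Summed podocyte, endothelial, stromal, immune and red cell markers overlapped in both schedules, and their most abundant genes over the 14 libraries were Podxl, Plvap, Dcn, Cd74 and Hbb-bs. The podocyte sum was higher by log2 0.31 and 0.29 (exact permutation p = 0.2 in each), and its 5 markers were above 0 in both schedules (50.3% and 50.8% of all genes were). The log2 differences of the other sums were 0.17 and 0.11 for endothelial, -0.14 and 0.14 for stromal, -0.15 and -0.05 for immune and 0.51 and -0.73 for red cell markers. Among stromal markers of the first schedule Pdgfrb stood above Dcn, at 40.6 against 32.5 CPM in water and 35.9 against 33.2 CPM in NMN mice. The adrenal cortex sum, in effect Star alone, was 4.95 CPM in water and 4.14 CPM in NMN mice of the second schedule, without overlap.

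**Figure D3:**
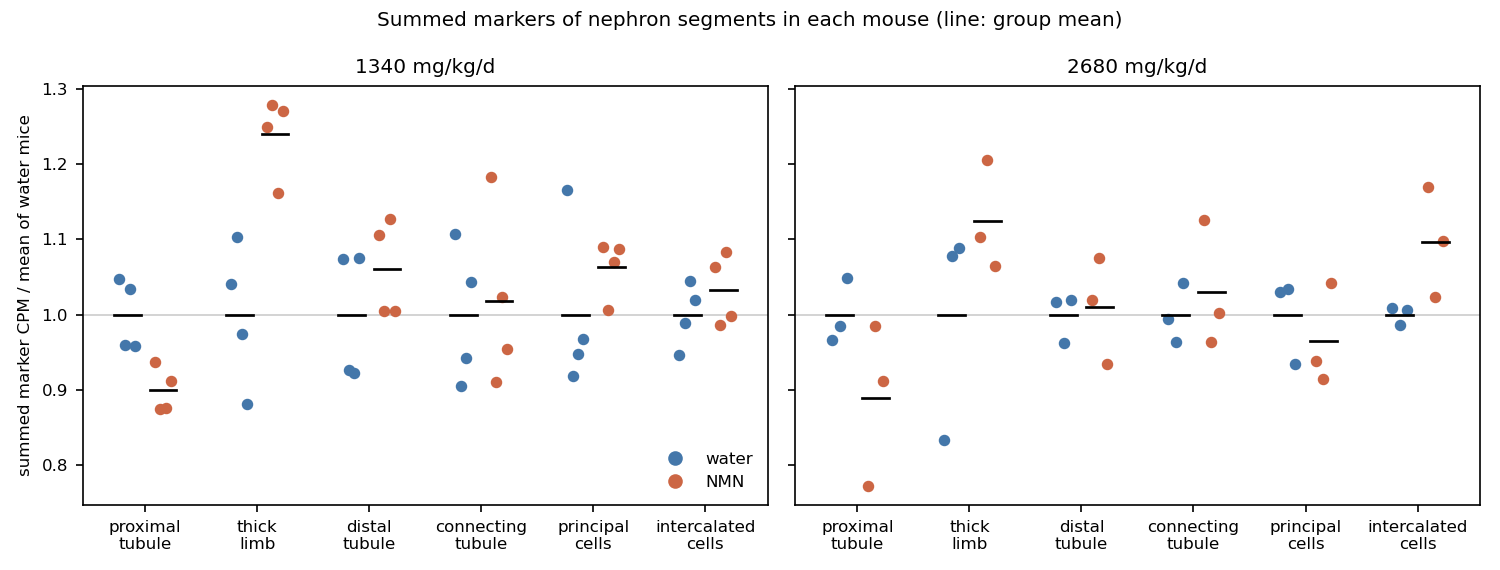
Summed CPM of the markers of 6 nephron segments or cell types in each kidney, divided by the mean of the water mice of the same schedule (vertical axis, which does not start at 0), for each schedule. Points are mice and black lines group means. At 1340 mg/kg/d the 4 NMN mice lie above the water mice for the thick limb and below them for the proximal tubule, and at 2680 mg/kg/d the 3 NMN mice lie above them for intercalated cells.

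Among genes of basolateral exit and potassium recycling, Atp1b1, which encodes a beta subunit of the basolateral sodium pump, had log2 differences of 0.31 and 0.25 (adjusted p = 0.237 and 0.468 by edgeR). DESeq2 called it in the first schedule, and it shares 18.7% of its exon bases with Nme7 on the other strand. Kcnj1, the ROMK channel that returns potassium to the urine, had differences of 0.18 and 0.20 (adjusted p = 0.6 and 0.384).

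The partners of the WNK kinases had values near 0. Of 6 tested among 7 listed, 5 were above 0 in the first schedule (median 0.09) and 4 in the second (0.02). None passed in edgeR or DESeq2, and 1 and 0 had an unadjusted p under 0.05 (8.94% and 11.1% of all genes). Klhl3, the adaptor through which WNK kinases are degraded, had log2 differences of 0.26 (adjusted p = 0.441) and -0.04 (adjusted p = 0.905).

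Genes that respond to corticosteroid receptors or act on ENaC were spread widely. Of 11, 9 were above 0 in each schedule, with medians of 0.25 and 0.35, and 0 passed in edgeR in either. An unadjusted p under 0.05 was reached by 4 of 11 in the first schedule (8.94% of all genes) and 1 of 11 in the second (11.1%), the latter near the share over all genes. DESeq2 called 2, Fkbp5 and Zbtb16, in the first (1.26% of all genes) and 0 in the second (1.53%). Fkbp5, a co-chaperone of steroid receptors that they induce, ran from 75.5 to 126.4 CPM in water and from 162.5 to 256.4 CPM in NMN mice of the first schedule (log2 0.94, SE 0.17, adjusted p = 0.0829 by edgeR). In the second it overlapped (log2 0.38, adjusted p = 0.767). Zbtb16, another steroid-induced gene, rested on 1.00 to 5.78 CPM in water and 7.23 to 57.3 CPM in NMN mice of the first schedule (log2 3.18, SE 0.88, adjusted p = 0.385). Nr3c1, the glucocorticoid receptor, was lower in each NMN mouse of the first schedule (log2 -0.24, adjusted p = 0.484), opposite in sign to Nr3c2. Sgk1, the kinase that restrains NEDD4-2, had log2 differences of 0.25 (adjusted p = 0.824) and 0.35 (adjusted p = 0.437). Usp2, a deubiquitinating enzyme that acts on ENaC, had differences of 0.52 and 0.54 (adjusted p = 0.397 and 0.743).

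Proteases that cleave ENaC to activate it included 3 of 5 above 0 in the first schedule and 5 of 5 in the second, with 0 passing in edgeR or DESeq2 in either and 2 and 1 at an unadjusted p under 0.05 (8.94% and 11.1% of all genes). Prss8, prostasin, had log2 differences of -0.23 and 0.06 (adjusted p = 0.508 and 0.89), and Tmprss4 -1.21 and 0.10 (adjusted p = 0.405 and 0.964). Tmprss4 rested on low levels, from 0.98 to 1.34 CPM in water and from 0.29 to 0.59 CPM in NMN mice of the first schedule. It shares 15.9% of its exon bases with Gm17099 on the other strand. St14, matriptase, had 0.11 and 0.34 (adjusted p = 0.757 and 0.135).

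Upstream of these segments, the sodium-coupled carriers of the proximal tubule mostly had values below 0. Of 8 carriers of proximal sodium entry, 5 were below 0 in the first schedule (median -0.20) and 8 in the second (-0.24). In the first, 0 passed in edgeR, 4 had an unadjusted p under 0.05 (8.94% of all genes) and DESeq2 called 2 (1.26% of all genes), Slc34a3 and Slc5a2, both lower. DESeq2 called both lower in the second schedule as well (1.53% of all genes), where 3 had an unadjusted p under 0.05 (11.1%). In the second, 1 fell past the threshold (0.282% of all genes did so downwards), Slc34a3, the sodium-phosphate carrier NaPi-IIc, from 48.2 CPM (SD 4.12, n = 3) in water to 27.9 CPM (SD 5.24, n = 3) in NMN mice, a log2 fold change of -0.79 (SE 0.13) with an adjusted p of 0.0282 by edgeR. The call was lost without any of the 3 water mice or NMN replicate 3, with adjusted p of 0.0704, 0.11, 0.187 and 0.105. Under the lower dose Slc34a3 had 60.0 CPM in water and 34.5 CPM in NMN mice (log2 -0.80, adjusted p = 0.115), again without overlap. Slc5a2, the glucose carrier SGLT2, had 415.7 and 268.7 CPM in the first schedule (log2 -0.63, adjusted p = 0.0852) and 225.2 and 155.3 CPM in the second (log2 -0.54, adjusted p = 0.324 by edgeR), and shares 20.6% of its exon bases with BC017158. Slc34a1, the main phosphate carrier, had log2 differences of -0.31 and -0.33 (adjusted p = 0.304 and 0.364), and shares 11.7% with Pfn3.

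One principal cell gene passed in the second schedule. Aqp4, the basolateral water channel of principal cells, which proximal cells of the mouse also express, fell from 86.5 CPM (SD 8.71, n = 3) in water to 46.1 CPM (SD 7.62, n = 3) in NMN mice (log2 -0.91, SE 0.12, adjusted p = 0.0122 by edgeR). The call was lost without water replicate 1 (adjusted p = 0.0588) or water replicate 3 (adjusted p = 0.108). Under the lower dose Aqp4 had 56.7 and 53.7 CPM (log2 -0.08, adjusted p = 0.876). Magnesium and calcium channels of the distal and connecting tubule did not pass, with log2 differences of 0.34 and 0.45 for Trpm6 (adjusted p = 0.553 and 0.47) and of 0.55 and 0.17 for Trpv5 (adjusted p = 0.132 and 0.62). DESeq2 called Trpv5 in the first schedule.

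**Figure D4:**
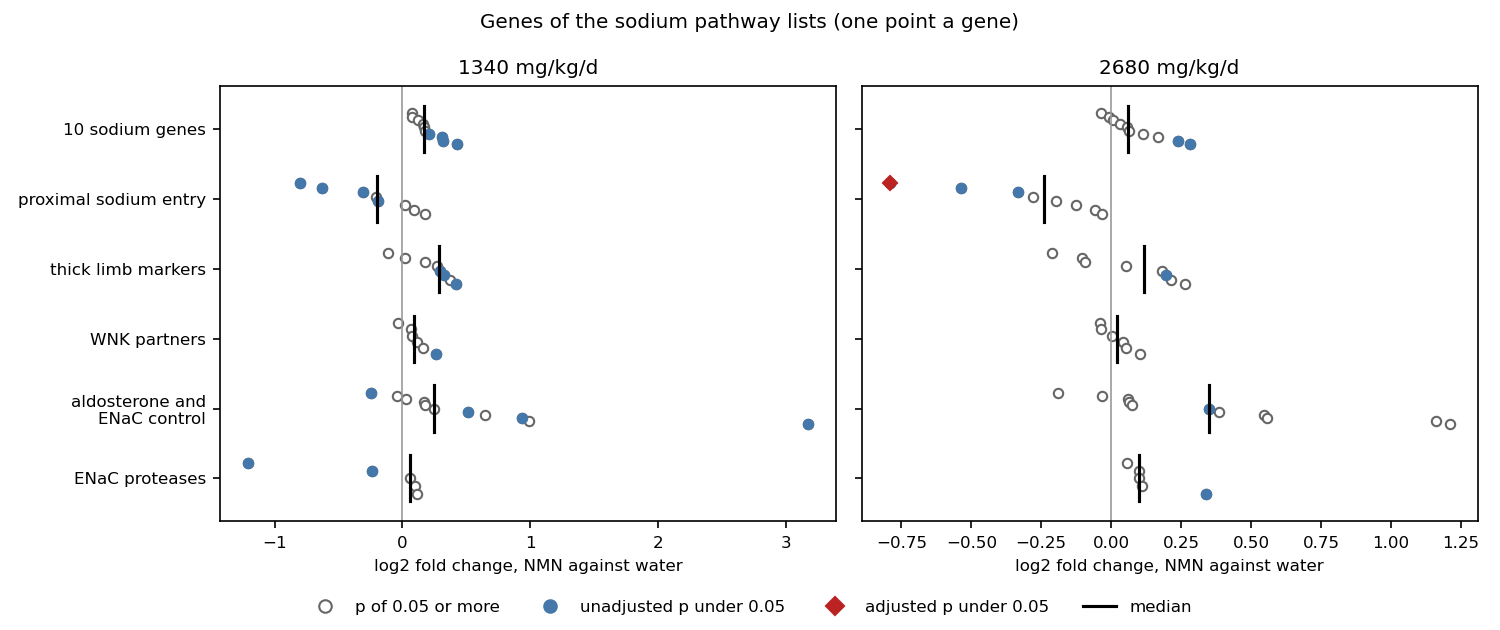
Log2 fold change of NMN against water (horizontal axis, whose range differs between the panels) for the genes of the 10 members and of 5 lists, one point a gene, in each schedule. Open points have an unadjusted p of 0.05 or more, blue points one under 0.05 and red diamonds an adjusted p under 0.05 by edgeR, and vertical bars are medians. The red diamond is Slc34a3 in the second schedule, and Zbtb16 lies farthest to the right in the first at 3.18.

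Over the 14 kidney libraries, with the mean of each schedule subtracted, correlations between members were described. Of the 45 pairs, 38 had a Pearson r above 0 and the median was 0.27. The pairs with the highest r were Wnk1 with Scnn1b and Nedd4l with Slc12a1, both at 0.73. These points share libraries, scaling and treatment, and the values are a description. Among 13934 genes of at least 1 CPM, the gene most like each member was Dennd5b for Slc12a1 (r = 0.909), Rbm18 for Slc12a3 (0.849), Tinagl1 for Scnn1a (0.91), Ppp1r15a for Scnn1b (0.92) and A030001D20Rik for Scnn1g (0.833). It was Wdr93 for Wnk1 (0.952), Ankrd24 for Wnk4 (0.882), Nceh1 for Stk39 (0.852), Atp8a1 for Nedd4l (0.915) and Ate1 for Nr3c2 (0.922).

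In the liver libraries of the same study some members were close to 0 and others were counted throughout. Scnn1b and Scnn1g had 0 to 3 counts in each liver library, and a count of 0 allows up to 3 counts. Slc12a1 had 13 to 39 counts in the livers of the first schedule and 0 to 17 in those of the second, and Slc12a3 8 to 36 and 0 to 32, against at least 10403 counts of Slc12a1 and 11220 of Slc12a3 in every kidney library. Wnk4 was at 0.92 to 2.77 CPM in the livers of the first schedule's water mice. Scnn1a, Wnk1, Nedd4l and Nr3c2 had means of 29.4, 47.2, 40.5 and 10.8 CPM in the liver water group of that schedule. In its kidney water group they had 142.7, 401.4, 114.1 and 18.2 CPM. The labels do not say whether these livers and kidneys came from the same mice. TMM factors were computed within each organ and schedule, so the levels of the organs are not on a common scale.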

How the data were processed

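Kidney and liver poly(A) RNA was sequenced on more than one Illumina instrument model per the methods, and which library ran on which is not given in the sources used here. Alignment was with STAR, and the authors deposited raw gene counts from HTSeq (strict intersection, strand ignored), with no normalization. The build named in the methods could not be matched, so symbols and exon lengths came from GENCODE M21, in which 53229 of 54446 identifiers matched with version, 1180 without and 37 not at all. Rows that name no gene held 18.6% to 29.3% of each library and were left out.

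Counts were tested in R 4.3.3 with edgeR 4.0.16 (filterByExpr, TMM, robust quasi-likelihood test, Benjamini-Hochberg over all tested genes), separately for 8 and 6 kidney libraries, and as an interaction over 14. Ratios used a prior count of 1 and, like marker sums, exact permutation tests. The labels number the replicates, and the study describes them as biological replicates. They are called mice here, and p-values measure the spread between them. None of the 18 kidney replicate pairs agreed within sampling noise (6.67 to 28.8 chi-square per gene). Reads carry no molecular identifiers, so depth bounds counting error only. The model steps were tested on simulated counts.

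The 10 genes and the lists of other genes were chosen with earlier results of these data known. Beside the 10, the genes named are the most abundant of each marker list over the 14 kidney libraries, up to 3 genes of each list with the smallest p in either schedule, those past the threshold, and the gene most correlated with each member. Avpr2, Hsd11b2, Alb, Pdgfrb, Cubn, Atp6v1g3 and Slc4a9 were named after their values were seen. Some genes of the lists are not reported here. Alternatives were DESeq2 1.42.0, other scalings and filters, the replicate number as a block, mitochondrial genes left out, thinned counts, 1 fit over 14 libraries, each library left out and, chosen after seeing the data, the unadjusted p.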

Additional observations from a re-analysis of the deposited data

Results flagged for a closer look

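Among 66 sets of 4 libraries (the 10 genes in each group of the first schedule, and summed markers), 3 held 1 library far from the others by Dixon's test, which by chance marks about 1 in 20 sets. All 3 were liver libraries of water mice. Slc12a3 was at 1.697 CPM in replicate 3, above the other 3, Scnn1g at 0.1333 CPM in replicate 2, which is 2 counts with 0 in the others, and Nedd4l at 75.41 CPM in replicate 1, against a group mean of 40.5 CPM (SD 23.4, n = 4).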

How the results depend on the processing

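Of 1668 alternative values, 1521 were scored as the same, 36 as weaker, 81 as stronger and 30 as changed in sign. For a gene, the same meant its direction and its side of the threshold, and for a count of genes a similar size. For most ratios and marker sums it meant lying within the SD between mice of the main value, whatever the sign. Changes of sign among the latter are therefore not in the 30. Over the alternatives Slc12a1 ran from 0.366 to 0.479 (log2) at 1340 mg/kg/d, with an adjusted p from 0.002 to 0.378. At 1340 mg/kg/d, 18 genes were called in edgeR, against 159 in DESeq2 and 269 with no filter, and 1 of the 10 sodium genes passed in each of these, Slc12a1 (adjusted p = 0.00945 and 0.002). The unadjusted p gave 1338 genes and 4 of the 10. At 2680 mg/kg/d, 61 were called, against 236 in DESeq2, 514 with no filter (with 1 of the 10, Scnn1a, adjusted p = 0.041), 35 with all 14 libraries in 1 fit and 1688 (2 of the 10) by unadjusted p. With no filter, Nedd4l was 0.014. For the interaction, 1 gene was called, against 10 in DESeq2, 106 with no filter, 0 with upper quartile scaling and 0 with at least 10 counts in every library, and 0 of the 10 under any. The cause of these differences was not tested.

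Slc34a3 at 2680 mg/kg/d had an adjusted p of 0.0543 on thinned counts and 0.158 in 1 fit over 14 libraries.

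The labels do not say whether same-numbered mice shared more than a number. Their deviations correlated from -0.145 to 0.227 at 1340 mg/kg/d, where 2 of 4 NMN libraries correlated best with their own number, and from -0.035 to 0.039 at 2680 mg/kg/d, where 0 of 3 did. With the replicate block 75, 92 and 2 genes were called in the 2 schedules and the interaction, with 1 of the 10 at 1340 mg/kg/d, Slc12a1 (adjusted p = 0.0432).

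Without 1 library the genes called ran from 5 to 67 at 1340 mg/kg/d, with 7 and 5 without water replicate 1 and 4, and 6, 67 and 42 without NMN replicate 2, 3 and 4. They ran from 3 to 191 at 2680 mg/kg/d, with 17, 20 and 3 without water replicate 1, 2 and 3, and 191 and 16 without NMN replicate 1 and 3. The interaction ran from 0 to 1, and 0 of the 10 passed in any of these fits. In the first schedule the log2 change ran from -0.014 to 0.195 for Scnn1g, from -0.118 to 0.036 for Aqp4 and from -0.179 to 0.017 for Lrp2. At 2680 mg/kg/d it ran from -0.156 to 0.062 for Slc12a1, from -0.066 to 0.095 for Slc12a3, from -0.053 to 0.044 for Scnn1g, from -0.003 to 0.136 for Wnk4, from -0.046 to 0.123 for Stk39, from -0.095 to 0.049 for Nedd4l, from -0.229 to 0.842 for Tmprss4 and from -0.044 to 0.131 for Prss8. The interaction ran from -0.175 to 0.026 for Scnn1g, from -0.093 to 0.065 for Wnk4 and from -0.036 to 0.151 for Nr3c2.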
